A study of Mus musculus with 2 samples.

Results

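Cyp21a1 encodes steroid 21-hydroxylase, and its long-read transcript models in the neonatal mouse adrenal gland are described here. The members were all models that the deposited quantifications name Cyp21a1, of whatever class, with their exons taken from the deposited model annotations. They numbered 209 of 89525 mouse models in replicate 1, with 12570 reads, and 196 of 109954 in replicate 2, with 7862 reads. Cyp21a1 was 1 of 18032 annotated mouse genes with reads. In both libraries the annotated 10-exon transcript Cyp21a1-201 held most of the reads, with 10523 of 12570 in replicate 1 and 5985 of 7862 in replicate 2. The remaining reads lay mainly in models that kept 1 or more of 4 introns, in fragments of the 3' end, and in models with other splice sites.

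Steroid 21-hydroxylase is a cytochrome P450 of the endoplasmic reticulum. It takes electrons from P450 oxidoreductase and adds a hydroxyl group to carbon 21 of progesterone and 17-hydroxyprogesterone, a step shared by the routes to aldosterone and to the glucocorticoids. It is expressed in the adrenal cortex. The gene lies in the class III region of the major histocompatibility complex, beside the complement C4 genes and tenascin-X, in a segment that is duplicated in mice and humans. In mice Cyp21a1 is the working copy and Cyp21a2-ps is an unprocessed pseudogene, that is, a duplicated gene copy that keeps its introns and no longer encodes the enzyme.

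The data are long-read RNA sequencing of total RNA from adrenal glands of male mice aged 4 days. The strain was B6CASTF1/J, the first-generation cross of C57BL/6J and CAST/EiJ, so reads of both parental alleles were set against the C57BL/6J genome. The study has 1 group with 2 libraries, biological replicates 1 and 2, and no treated or contrasted group. The labels name different males for the tissue (03 for replicate 1, 04 for replicate 2), but the library descriptions and the donor identifier are the same for both, so separate animals are not certain and the p-values cover counting error in these libraries and no spread between animals. Mouse reads numbered 688260 in replicate 1 and 810645 in replicate 2, and 1 read equals 1.45 and 1.23 CPM, the count of a gene scaled to the total of mouse reads. All 6 adrenal cortex markers and all 6 chromaffin cell markers had reads in the libraries, and replicate 2 also carried far more reads of hepatocyte markers, with a summed level of 21304 CPM against 514 in replicate 1.

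Cyp21a1 (ENSMUSG00000024365.9) lies at chr17:34801348-34804561 of mm10 on the minus strand. Its start codon is at 34804397 to 34804399, in exon 1, and its stop codon at 34801780 to 34801782, in exon 10. The annotation lists 3 transcripts. Cyp21a1-201 has 10 exons and 2058 bases, Cyp21a1-202 has 3 exons and 433 bases from the 5' part, and Cyp21a1-203 has 5 exons and 751 bases from the middle. Neither library assigned a read to Cyp21a1-202 or Cyp21a1-203. In a file that lists only models with reads, that allows up to 3 reads of each per library, or 4.36 CPM in replicate 1 and 3.70 CPM in replicate 2.

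The sequences below are from the GENCODE transcripts of the same build and show the junctions that set the main spliced forms apart. They are printed 5' to 3' on the gene's own strand. The first shows the start of translation, with the start codon in capitals. The next 3 show the end of exon 1 in lower case and, in capitals, the exon it is joined to. They show Cyp21a1-201, models that skip exon 2, and the annotated pseudogene transcript, whose exon 2 matches exon 3 of Cyp21a1.
start of translation: gctgggccATGctgctacctgggctgctgc
exon 1 to exon 2: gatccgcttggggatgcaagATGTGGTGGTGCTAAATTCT
exon 1 to exon 3: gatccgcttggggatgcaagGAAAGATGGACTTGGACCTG
pseudogene exon 1 to its exon 2: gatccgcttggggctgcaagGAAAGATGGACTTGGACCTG

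The next lines show where other splice choices changed the message. Exon 2 is given whole, with the 25 bases that an acceptor inside it removes in capitals. The junction of exons 3 and 5 is what remains when exon 4 is skipped. In the junctions of exons 4 and 5 and of exons 7 and 8, the capitals are the 5 and 6 bases lost with acceptors just inside the exon. The last line is intron 8 in capitals (chr17:34802237-34802304, 68 bases) with 10 bases of exon on each side.
exon 2: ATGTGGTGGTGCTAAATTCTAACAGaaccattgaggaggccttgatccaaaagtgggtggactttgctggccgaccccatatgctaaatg
exon 3 to exon 4: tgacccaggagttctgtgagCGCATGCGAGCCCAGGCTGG
exon 3 to exon 5: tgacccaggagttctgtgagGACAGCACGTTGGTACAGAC
exon 4 to exon 5: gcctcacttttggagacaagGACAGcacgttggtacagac
exon 7 to exon 8: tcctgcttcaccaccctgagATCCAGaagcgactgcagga
intron 8: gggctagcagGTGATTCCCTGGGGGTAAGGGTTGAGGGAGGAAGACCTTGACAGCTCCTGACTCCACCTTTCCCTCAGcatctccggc

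Cyp21a1 took 1.83% of all mouse reads in replicate 1 (95% Wilson interval 1.80 to 1.86) and 0.970% in replicate 2 (0.949 to 0.991). Since a long read stands for a whole or partial transcript, its reads were not divided by length. By reads it ranked 1 among the annotated genes of replicate 1 and 2 in replicate 2. Its level was 18263 CPM in replicate 1 and 9698 CPM in replicate 2, or 13981 ± 6056 (SD, n = 2).

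The level was thus lower in replicate 2, with a log2 ratio of replicate 2 over replicate 1 of -0.91 (counting SE 0.02, with 0.5 CPM added to each value). Over the 8277 genes that had 20 or more reads, Fisher's exact test (two-sided, Benjamini-Hochberg) gave Cyp21a1 a p too small to be represented. A gene was called when its adjusted p was under 0.05 and its log2 ratio at least 1 in size, and Cyp21a1 missed that size. Of all genes tested, 4.1% passed the p threshold with a lower level in replicate 2 and 0.967% were called lower, while 3.95% had a log2 ratio below that of Cyp21a1. The median over all genes was -0.10. With 1 library on each side, these tests compare the libraries with counting error alone. In bulk tissue, fewer cells of a type and less RNA per cell cannot be told apart. The summed level of the cortex markers was 28050 CPM in replicate 1 and 21907 CPM in replicate 2, with 6 of 6 lower. That of the chromaffin markers was 12504 and 9293 CPM, with 6 of 6 lower. Their median log2 ratios were -0.48 and -0.39, where the lower quartile of all genes was -0.38, and none was called. Cyp11a1, 1 of the cortex markers, changed sign with TMM and DESeq2 factors. The hepatocyte markers were higher in 10 of 10, all called. The red blood cell markers had 3670 and 7480 CPM, with 5 of 5 higher and 3 called, where 2.26% of all genes were called higher. Without the reads of the hepatocyte list, the log2 ratio of Cyp21a1 was -0.88.

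The genes that act with 21-hydroxylase moved less evenly. Of the 17 listed genes of steroid synthesis, 15 were tested. At an adjusted p under 0.05 (Fisher's exact test, Benjamini-Hochberg), 8 were lower in replicate 2 and 1 was higher, where the background is 4.1% lower and 3.83% higher. Their median log2 ratio was -0.39 against -0.10 over all genes tested. With size included, 3 were called, Akr1c18 and Cyp11b2 as lower (background 0.967%) and Hsd11b1 as higher (background 2.26%). That count was 5 without genomic models, 4 with known models alone and 2 among genes of at least 100 reads. Hsd11b1, which regenerates active glucocorticoid and is abundant in liver, had 17.4 and 55.5 CPM, beside hepatocyte marker sums of 514 and 21304 CPM, whose part in it was not tested.

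Upstream of 21-hydroxylase, Cyp11a1, the side-chain cleavage enzyme that makes pregnenolone from cholesterol, had 11667 and 11398 CPM. Its log2 ratio was -0.03, but -0.28 without genomic models and 0.08 with DESeq2 size factors, each past the p threshold (exact, adjusted p = 1.53e-19 and 0.00884), so it gave no stable direction. Hsd3b1, which makes progesterone, the substrate of 21-hydroxylase, had 8182 and 4928 CPM, a log2 ratio of -0.73 (SE 0.03). It passed the p threshold (exact, adjusted p = 4.97e-133), but not with known models alone, which hold 11 and 10 of its reads. Star, which carries cholesterol to the inner mitochondrial membrane, had 1651 and 1322 CPM. Cyp21a1 therefore gave 1.57 reads per Cyp11a1 read in replicate 1 and 0.851 in replicate 2, and 2.23 and 1.97 reads per Hsd3b1 read.

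Downstream, Cyp11b1, the 11-beta-hydroxylase that makes corticosterone, had 5372 and 3413 CPM and a log2 ratio of -0.65. Cyp11b2, the aldosterone synthase, had 748 and 318 CPM, a log2 ratio of -1.23. There were 3.40 and 2.84 Cyp21a1 reads per Cyp11b1 read, so the ratio of those 2 genes within a library moved less than the ratio to Cyp11a1. Cyp17a1, the 17-hydroxylase, had 0 reads in replicate 1 and 2 in replicate 2, below what the depth can resolve. Akr1c18, which reduces progesterone at carbon 20 and so removes the substrate, had 1927 and 718 CPM, the lowest log2 ratio of the list at -1.42. Por, the electron donor of 21-hydroxylase, had 222 CPM and 174 CPM and did not pass the test (exact, adjusted p = 0.232).

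**Figure D1:**
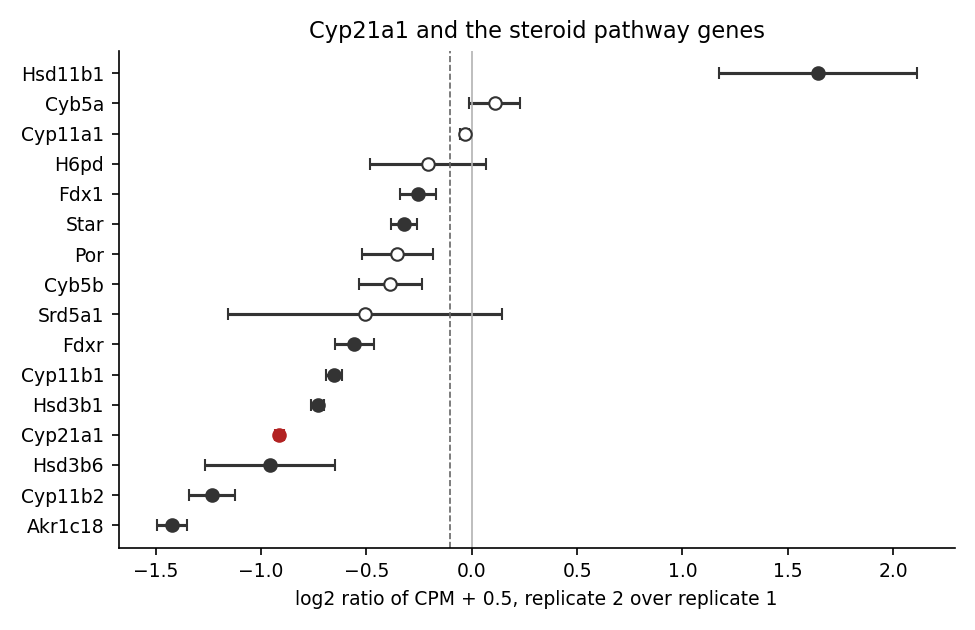
Log2 ratio of CPM + 0.5 in replicate 2 over replicate 1 (x axis) for Cyp21a1 (red) and the 15 tested genes of the steroid list (black), with bars of 1 counting SE. Filled points passed an adjusted p under 0.05, and the dashed line is the median of all 8277 genes at -0.10; Cyp21a1 at -0.91 lies below Cyp11b1 and Hsd3b1 and above Cyp11b2 and Akr1c18.

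TALON, the program that built the models, sorts each into a class. A known model matches an annotated transcript, an incomplete splice match (ISM) holds a run of its introns, NIC joins annotated splice sites in a new way, NNC uses a new splice site, and the last class is named genomic. For Cyp21a1 the genomic class held 1 unspliced model in replicate 1 and 1 read of a spliced model in replicate 2. Known models took 83.7% of Cyp21a1 reads in replicate 1 (95% Wilson interval 83.1 to 84.3) and 76.1% in replicate 2 (75.2 to 77.1), or 79.9% ± 5.37 (SD, n = 2). Among the 2813 genes with at least 50 reads in each library, the median known share was 86.7% and 83.2%, and 41.6% and 35.5% of genes had a lower share than Cyp21a1. ISM models took 6.98% and 9.63%, NIC models 5.58% and 12.3%, NNC models 2.13% and 1.93%, and genomic models 1.60% and 0.0127%.

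The NIC share stood highest relative to other genes, above 78.9% of them in replicate 1 and 88.3% in replicate 2. The difference of replicate 2 from replicate 1 was -7.59 percentage points for known reads and 6.72 points for NIC reads. By Fisher's exact test (two-sided, Benjamini-Hochberg over 12080 class shares), 4 of the 5 Cyp21a1 shares passed an adjusted p under 0.05 (background 2.91%), with NNC the exception (adjusted p = 0.977). None of the 5 reached 10 points and so none was called, where 2.07% of all shares were. At an unadjusted p under 0.05 the count was 4.

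Part of the class difference lay in the names and not in the structures. The chain that keeps intron 3 was filed as ISM in replicate 1 (148 reads) and as NIC in replicate 2 (171 reads). Reads of the last exon alone were filed as genomic in replicate 1 (201 reads, 34801348 to 34801623) and as ISM in replicate 2 (224 reads, 34801348 to 34802048). There the extent of the deposited model differed as well as the name. Intron chains found in both libraries numbered 118, which is 56.7% of the 208 chains of replicate 1 and 60.5% of the 195 of replicate 2. They held 97.4% and 95.7% of the reads. The 2 libraries gave 93 of them the same class and 25 different ones, with 357 and 363 reads in the latter. The largest chain without a match had 6 reads in replicate 1 and 5 in replicate 2. Models of 1 read made up 42.6% and 41.3% of the models but 0.708% and 1.03% of the reads.

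Models were therefore also sorted by their exons alone. These categories were set after the values were seen and are given without a test. Models that keep at least 1 intron, with no other splice site and no skipped exon, held 1121 reads in replicate 1, or 8.92% (8.43 to 9.43), and 1071 reads in replicate 2, or 13.6% (12.9 to 14.4). Of these reads, 72 and 89 lay in models that also begin after exon 1. Models with a splice site that Cyp21a1-201 lacks held 3.17% and 3.14%. Models that begin after exon 1 and are otherwise spliced as annotated held 1.57% and 2.75%, and the last exon alone 1.60% and 2.85%. Over all categories, 3.81% (3.49 to 4.16) and 6.87% (6.33 to 7.45) of reads were in models that begin after exon 1. The chain that splices intron 9 alone is among them in replicate 2 (28 reads) and not in replicate 1 (27 reads), where its deposited model begins in exon 1. Models that skip an exon held 0.732% and 1.30%, and models joined to positions beyond the 3' end of the gene 0.302% and 0.204%. Retained introns, the fragments and skipped exons were higher in replicate 2 beyond their counting intervals, while the intervals for other splice sites and joined models overlapped.

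**Figure D2:**
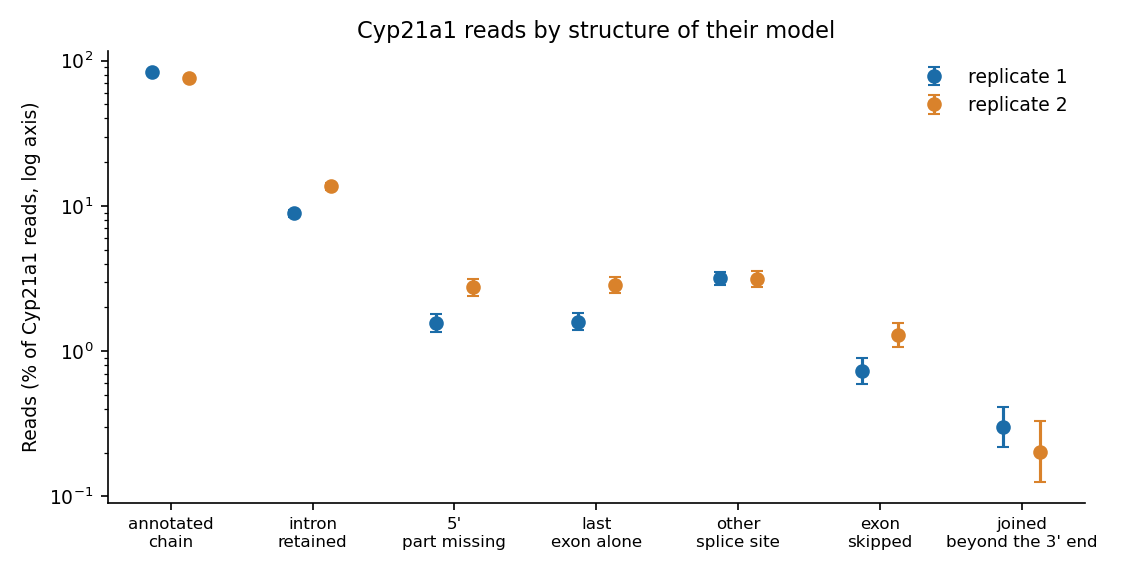
Reads by structure of their model (x axis) as a percentage of all Cyp21a1 reads (y axis, log scale) in replicate 1 (blue) and replicate 2 (orange), with 95% Wilson intervals. The annotated chain holds 83.7% in replicate 1 and 76.1% in replicate 2, models with a retained intron 8.92% and 13.6%, and other splice sites 3.17% and 3.14%.

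The most abundant models after Cyp21a1-201 each held under 3% of the reads. The chain that keeps intron 1 had 255 reads in replicate 1 and 105 in replicate 2, the chain that keeps intron 3 had 148 and 171, and the chain that keeps intron 8 had 81 and 125. Introns 3 and 4 were kept together in 44 and 79 reads, and intron 6 alone in 57 and 51. A fragment that begins in exon 7 had 90 and 92 reads, and a fragment that begins in exon 3 had 56 and 37. A fragment that begins at the annotated start of Cyp21a1-203 and keeps introns 4 and 5, which that transcript splices, had 50 and 40 reads. It splices only the introns after exon 6, as a read that begins in exon 6 would, so retention and a later start cannot be told apart. A fragment from exon 8 had 30 and 39 reads.

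Of 40 Cyp21a1 chains with at least 20 reads over both libraries, 9 differed in their share of the gene's reads at an adjusted p under 0.05 (Fisher's exact test, two-sided, adjusted over 4159 models of 2696 genes), against 2.14% of all models. None reached 10 points, the size needed for a call, which 1.25% of all models reached; 14 had an unadjusted p under 0.05. The annotated chain was lower in replicate 2 (exact, adjusted p = 7.38e-37) and so was the chain with intron 1 kept, at 2.03% and 1.34% (exact, adjusted p = 0.0170). The other 7 were higher in replicate 2, and 5 of them kept intron 3 or intron 8. Intron 3 alone was kept in 1.18% of reads in replicate 1 and 2.18% in replicate 2 (exact, adjusted p = 1.10e-05) and intron 8 alone in 0.644% and 1.59% (exact, adjusted p = 4.15e-08).

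**Figure D3:**
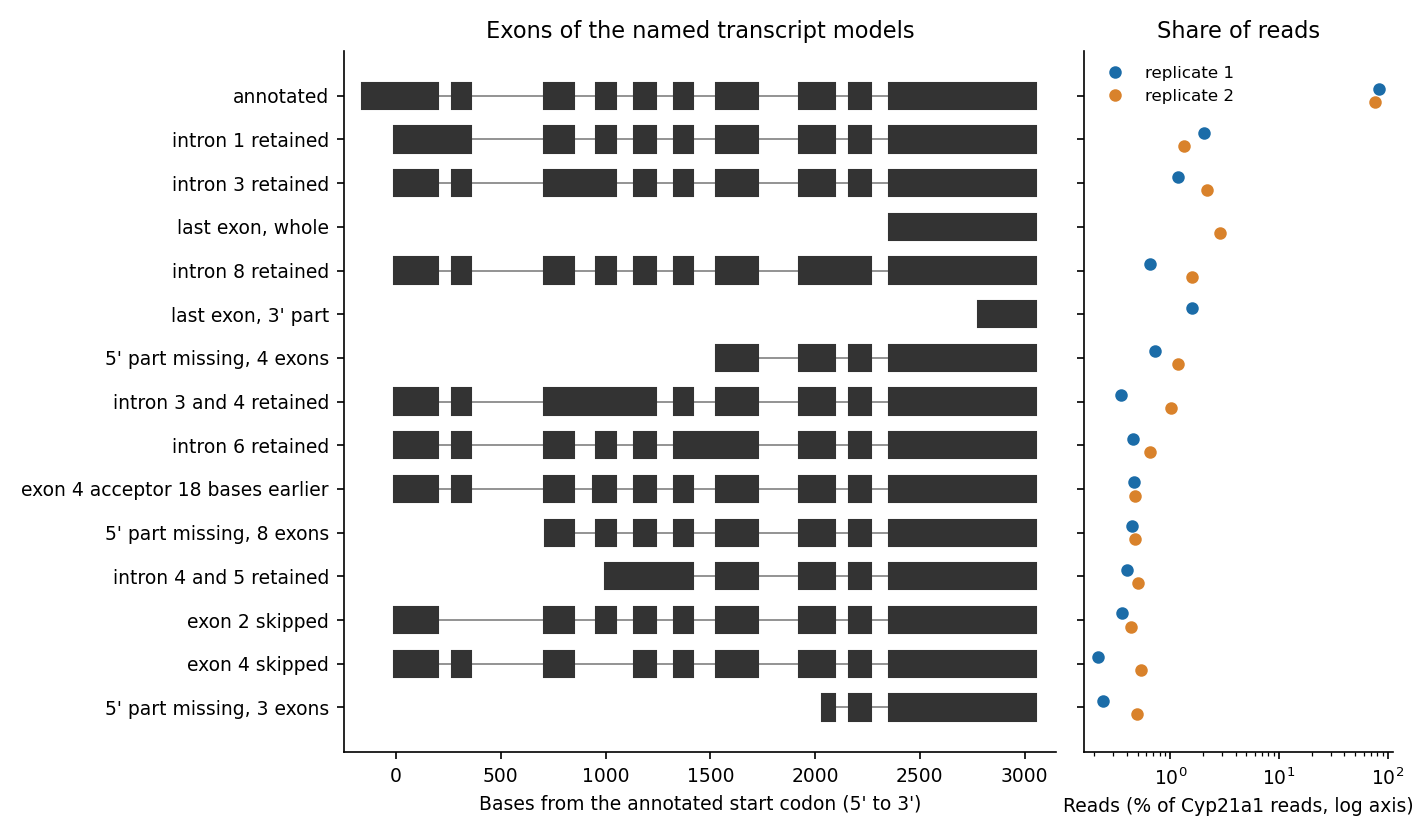
Exons of Cyp21a1-201 and of the models most abundant in either library (left, black boxes, x axis in bases from the annotated start codon) and their share of Cyp21a1 reads (right, log axis) in replicate 1 (blue) and replicate 2 (orange). The annotated chain holds 83.7% and 76.1%, the other models 2.85% or less, and the last exon appears as a different fragment in each library.

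Intron by intron, splicing was nearly complete at some positions and not at others. Over all reads of models that cover an intron, pooled over the 9 introns, 97.1% in replicate 1 and 95.7% in replicate 2 were spliced exactly as annotated, or 96.4% ± 0.998 (SD, n = 2). Intron 9 was kept in 14 of 12369 covering reads in replicate 1 and 6 of 7636 in replicate 2, the lowest shares at 0.113% and 0.0786%. Most of these reads were in models of 1 read, and without such models the shares were 0.0244% and 0.0265%. Intron 2, the longest at 352 bases, was kept in 0.364% and 0.260%, and intron 5 in 0.792% and 0.925%. Of the 97 and 69 reads that kept intron 5, 50 and 40 lay in the fragment that keeps introns 4 and 5. For that fragment retention and a later start cannot be told apart. Intron 7 was kept in 1.42% and 1.90%.

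The introns kept most were 1, 3, 4 and 8, which have 64, 105, 86 and 68 bases. Intron 1 was kept in 5.16% of covering reads in replicate 1 (4.78 to 5.57) and 4.90% in replicate 2 (4.43 to 5.42), with overlapping intervals. The chain that keeps intron 1 alone, with 255 and 105 reads, has the splices of a read that begins in exon 2. Its model start, 34804407, is the annotated start of Cyp21a1-202. Exons 1 and 2 had equal coverage, at 12091 and 7322 reads, so no model begins in exon 2. Retention of intron 1 and a later start therefore cannot be told apart. Intron 3 was kept in 4.21% (3.87 to 4.59) and 8.39% (7.78 to 9.05). Intron 4 was kept in 3.53% (3.22 to 3.87) and 6.38% (5.85 to 6.96), and intron 8 in 3.00% (2.71 to 3.32) and 6.09% (5.57 to 6.64). The intron 4 shares include the 50 and 40 reads of the fragment that keeps introns 4 and 5. Intron 6 lay below introns 1, 3, 4 and 8, at 2.23% (1.98 to 2.51) and 3.47% (3.08 to 3.91). The intervals of introns 3, 4, 6 and 8 did not overlap between the libraries, and those of the other 5 introns, as counted here, did. The order did not follow length: intron 9, with 84 bases, was kept least, and intron 4, with 86, was among those kept most.

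**Figure D4:**
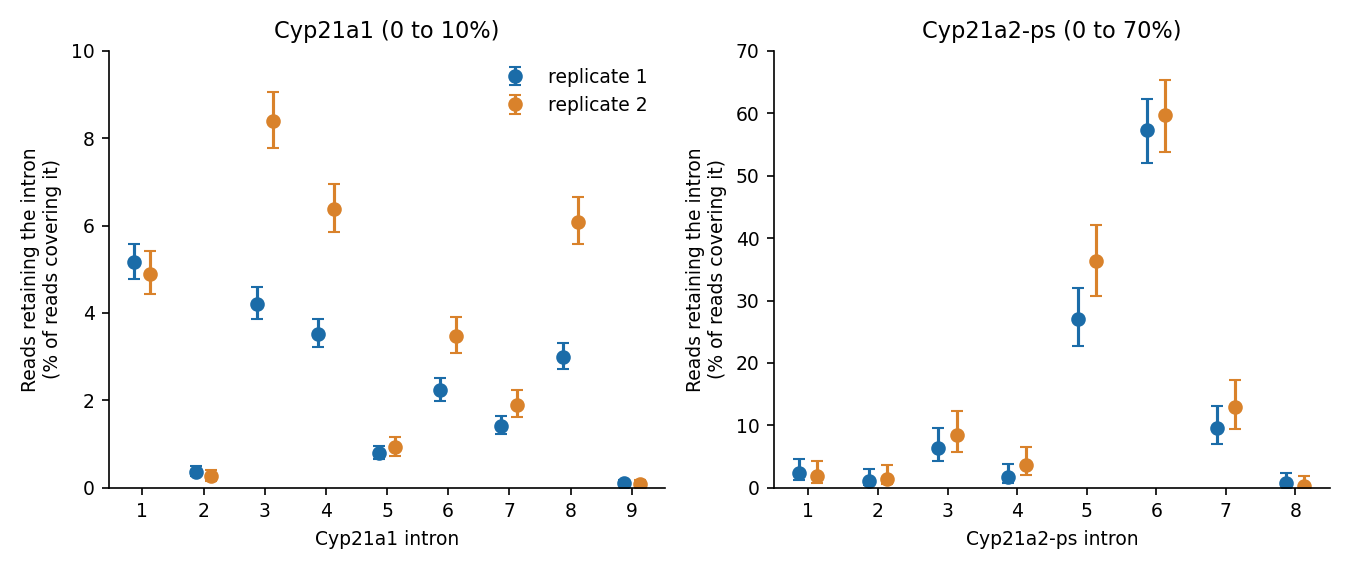
Reads that keep each intron as a percentage of the reads that cover it (y axis, different ranges) for the 9 introns of Cyp21a1 (left) and the 8 of Cyp21a2-ps (right), in replicate 1 (blue) and replicate 2 (orange) with 95% Wilson intervals. In Cyp21a1, introns 3, 4, 6 and 8 are higher in replicate 2 and intron 1 is not; in the pseudogene, intron 6 is kept in 57.3% and 59.7%.

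Reads with at least 1 retained intron, other splice changes allowed, numbered 1210 in replicate 1, or 9.63% (9.12 to 10.1), and 1156 in replicate 2, or 14.7% (13.9 to 15.5). Of these, 93.8% and 93.3% kept intron 1, 3, 4 or 8. More than 1 intron was kept in 551 and 589 of them, or 45.5% and 51.0%. The 1210 and 1156 reads include 2 chains that a later start would also give. These are the chain that keeps intron 1 alone (255 and 105 reads) and the fragment that keeps introns 4 and 5 (50 and 40). Models that kept 8 of the 9 introns had 32 reads in replicate 1 and 2 in replicate 2, but this count turns on a deposited model end. The chain that splices intron 9 alone had 27 reads in replicate 1, in a model that begins at 34804407 and so keeps introns 1 to 8, and 28 reads in replicate 2, in a model that begins at 34802236, the start of exon 9. Without that chain, an alternative chosen after seeing the data, intron 2 was kept in 0.141% of covering reads in replicate 1 in place of 0.364%, intron 5 in 0.573% and intron 7 in 1.20%, while introns 1, 3, 4 and 8 were kept in 4.95%, 4.00%, 3.31% and 2.79%. No model kept all 9, and a count of 0 allows up to 3 reads per library.

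Retained introns came together in the same reads. Among reads that kept intron 3, 55.1% also kept intron 4 in replicate 1 and 56.8% in replicate 2, against 0.712% and 0.859% of the reads that spliced intron 3. Distant introns paired too: of the reads that kept intron 1, 31.7% and 41.5% also kept intron 8, against 1.42% and 4.01% of the reads that spliced intron 1. These shares describe reads of 2 libraries and carry no test.

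**Figure D5:**
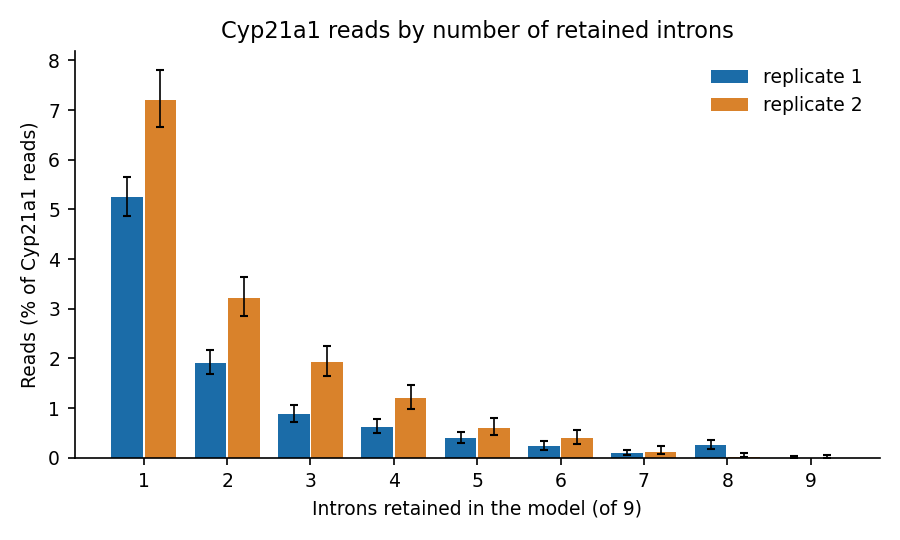
Reads by the number of retained introns in their model (x axis, 1 to 9) as a percentage of all Cyp21a1 reads (y axis) in replicate 1 (blue) and replicate 2 (orange), with 95% Wilson intervals. Models with 1 retained intron hold 5.24% and 7.21%, and models with 2 or more hold 4.38% and 7.49%. Chains that a later start would also give are counted as retained.

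Set beside the other genes with at least 50 reads in each library and a leading known model with introns, Cyp21a1 models kept introns often. Of 2687 genes, 89.3% had a lower share of reads with a retained intron in replicate 1 and 91.3% in replicate 2, where the medians were 0.952% and 1.22%. The Cyp21a1 share counts chains that cannot be told apart from a later start, such as that of intron 1 alone with 255 and 105 reads. The introns of Cyp21a1 are short: the median length is 88 bases, and 0.521% of these genes have a shorter median intron. Over the 12 other steroid genes with a value, 11 had a lower share than Cyp21a1 in both libraries, among them Cyp11b1 at 0.839% and 2.42% and Cyp11b2 at 5.63% and 9.69%. The exception was Cyp11a1 at 42.4% and 53.9%, where genomic models held 3245 and 4704 reads.

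Exon skipping was rare and was seen in both libraries. Exon 2, of 90 bases, was skipped in 61 reads of replicate 1, or 0.485% (0.378 to 0.623), and 56 of replicate 2, or 0.712% (0.549 to 0.924). Exon 4, of 96 bases, was skipped in 32 reads, or 0.255% (0.180 to 0.359), and in 50 reads, or 0.636% (0.483 to 0.837). The intervals overlapped for exon 2 and not for exon 4. Both lengths are multiples of 3. Read from the annotated start codon, the open frame has 487 codons in Cyp21a1-201, 457 when exon 2 is the only change and 455 when exon 4 is. The chains with only that change had 45 and 34 reads for exon 2, and 27 and 42 for exon 4. Exon 3, of 143 bases, was skipped in 13 and 13 reads, of which 10 and 10 lay in a chain that also skips exon 2.

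Splice sites that Cyp21a1-201 does not use and that were joined to a site it does use numbered 37 within the gene, of which 20 were seen in both libraries, 15 rested on 1 read and 11 had 10 reads or more. An acceptor 18 bases before exon 4, which lengthens the exon by a multiple of 3, had 60 reads in replicate 1 and 40 in replicate 2, or 0.477% and 0.509%. Whether the added bases hold a stop was not checked. The acceptor 5 bases inside exon 5, which Cyp21a1-203 uses, had 65 and 46 reads. It shifts the frame, and the open frame from the annotated start then has 250 codons. The acceptor 25 bases inside exon 2, shown above, had 45 and 28 reads and leaves 73 codons. The acceptor 6 bases inside exon 8 had 28 and 16 reads and leaves 485 codons. The acceptor of Cyp21a1-202, 14 bases before exon 2, had 22 and 10 reads. A donor that removes the last 62 bases of exon 8 had 39 and 21 reads. For each of these 6 sites the 95% intervals of the 2 libraries overlapped. Retention of intron 8, whose sequence is shown above, leaves 364 codons from the annotated start. Introns 3 and 9 have lengths that are multiples of 3.

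Model ends were largely taken from the annotation. Among reads of models other than Cyp21a1-201, 98.1% in replicate 1 and 99.1% in replicate 2 ended at the annotated 3' end of the gene. At the 5' end, 73.4% and 65.4% began at the annotated start of Cyp21a1-202, at 34804407, 8 bases before the start codon, although no read was assigned to that transcript. The start of Cyp21a1-201 was used by 2.35% and 5.38%, and the start of Cyp21a1-203 by 4.64% and 5.11%. Models that begin above the annotated start of the gene had 8 and 9 reads and reached up to position 34804999 and 34804967. Because ends were shared with annotated ones, they do not give the 5' end of single reads.

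By their models, 96.2% of Cyp21a1 reads in replicate 1 and 93.1% in replicate 2 covered exon 1, and 98.2% and 96.3% reached exon 7. Exon 9 was covered by 98.4% and 97.1%, and nearly all other reads were the last-exon fragments. Reads of known models count here with all annotated exons. The chain that splices intron 9 alone counts as covering exon 1 in replicate 1 (27 reads) and not in replicate 2 (28 reads).

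Cyp21a2-ps (chr17:34719813-34722252, minus strand) had 377 reads in 61 models in replicate 1 and 287 reads in 56 models in replicate 2, or 548 and 354 CPM. That gave 33.3 and 27.4 Cyp21a1 reads per pseudogene read. Its 9 annotated exons match exon 1 from the start codon and exons 3 to 10 of Cyp21a1, with 45 mismatches over 1383 bases, or 96.7% identity. Exon 5 is identical, and the last exon differs most, at 92.1% over 278 bases. Nothing in the pseudogene annotation corresponds to exon 2, and its span from exon 1 to the exon that matches exon 3 has 296 bases, 210 fewer than in Cyp21a1. The pseudogene frame runs 280 codons from the first base of its annotated transcript, which matches the start codon of Cyp21a1, to a stop. That stop, TGA at codon 281, lies in its exon 7, where exon 8 of Cyp21a1 has CGA. The pair of exons is shown because it holds this first stop of the annotated pseudogene transcript, with the bases that differ in capitals.
Cyp21a1 exon 8: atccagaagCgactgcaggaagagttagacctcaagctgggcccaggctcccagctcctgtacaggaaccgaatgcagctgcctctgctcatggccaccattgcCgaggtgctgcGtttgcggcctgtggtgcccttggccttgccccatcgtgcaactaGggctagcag
Cyp21a2-ps exon 7: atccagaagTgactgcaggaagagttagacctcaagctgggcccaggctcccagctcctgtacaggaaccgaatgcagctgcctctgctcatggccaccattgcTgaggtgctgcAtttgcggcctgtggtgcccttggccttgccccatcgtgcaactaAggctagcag

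The copies were spliced differently. Known models held 19.1% of pseudogene reads in replicate 1 (15.4 to 23.4) and 16.7% in replicate 2 (12.9 to 21.5), against 83.7% and 76.1% for Cyp21a1. Intron 6 of the pseudogene was kept in 57.3% of covering reads (52.0 to 62.3) and 59.7% (53.8 to 65.3), while the matching intron 7 of Cyp21a1 was kept in 1.42% and 1.90%. Intron 5 of the pseudogene was kept in 27.1% and 36.3%, against 2.23% and 3.47% for intron 6 of Cyp21a1. Intron 7 of the pseudogene, which matches intron 8, was spliced at other sites in 56.2% and 59.9% of covering reads, against 0.477% and 0.407% in Cyp21a1. Intron 1 of the pseudogene, whose annotated junction is printed above, was spliced as annotated in 43.2% and 40.4% of covering reads. It was spliced otherwise in 54.4% and 57.8%. Intron 3 of the pseudogene, which matches intron 4 and has the same 86 bases, was kept in 6.41% (4.27 to 9.52) and 8.42% (5.68 to 12.3), against 3.53% and 6.38% in Cyp21a1, and the last intron of each copy was kept in under 1%. Reads of a fragment shorter than the distance between mismatches cannot be assigned to a copy with certainty, and how such reads were placed was not tested.

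A few Cyp21a1 models extend to neighbouring loci. By the rule that exons lie beyond the gene's annotated ends and overlap an exon of another gene, there were 38 such reads in replicate 1 and 7 in replicate 2. Models that continue into exons of Cyp21a2-ps had 8 reads in 7 models and 3 reads in 2 models. Of their 6 junctions, 5 landed on the first base of an annotated pseudogene exon, with 7 of 8 and 3 of 3 reads. The most frequent, from 34802313 inside exon 8 of Cyp21a1 to pseudogene exon 8, had 4 and 2 reads. In the pseudogene the base that matches 34802313 is 34720355, so this junction passes over 76 bases of the copy. How reads of such similar copies were placed was not tested, so these models may not stand for single transcripts across both loci. Junctions between annotated sites on both sides had 2 reads and 1 read.

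Another kind of model ran through Cyp21a1 to 34801439, 91 bases before its 3' end, and then continued at 34719442, 371 bases below the annotated end of the pseudogene. That junction had 16 reads in replicate 1 and 8 in replicate 2, so it was in both libraries. At the spacing of the matching last exons, 34801439 corresponds to 34719481, so the junction passes over 38 bases of the copy. Models of the pseudogene itself ended below its annotated end in 305 of 377 reads in replicate 1 and 239 of 287 in replicate 2. The sequence below the annotated pseudogene was not compared, and how the reads of the joined models were placed was not tested. The models ended at 34719224 in replicate 1, where they overlap an exon of Tnxb by 1 base, and at 34719324 in replicate 2, where they overlap none, which is why the rule counts them in replicate 1 alone. Other models continued into the region of Tnxa, a plus-strand tenascin pseudogene whose last exon shares 276 bases with exon 10 of Cyp21a1, and had 14 and 4 reads. Tnxa itself had 0 reads in both libraries. The genomic fragment of replicate 1 ends at the annotated end of Tnxa, 34801623, and is on the minus strand. Whether the libraries keep strand is not given in the sources used here, so the strand of reads in this overlap rests on the deposited model. Each kind of joined model held under 0.13% of Cyp21a1 reads in each library.

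The other genes with reads within 100 kb were far below Cyp21a1. C4b and C4a, the complement component 4 gene and its duplicated copy, had 196 and 212 CPM in replicate 1 and 233 and 184 CPM in replicate 2, and neither passed the test (exact, adjusted p = 0.441 and 0.573). As near-identical copies they may share reads. Cfb, complement factor B, had 27.6 and 169 CPM, with a log2 ratio of 2.59, and was called as higher (exact, adjusted p = 2.65e-17). Cfb is made in liver, and the part of the hepatocyte reads in it was not tested. C2, complement component 2, had 40.7 and 65.4 CPM, and Gm20547, which overlaps Cfb and C2, had 0 and 10 reads. Dxo, Skiv2l, Nelfe, Stk19 and Ehmt2 had between 37.0 and 97.4 CPM in each library and did not pass the test. Tnxb, tenascin-X, had 2 and 0 reads, Stk19-ps1 0 and 2, and Zbtb12 1 and 0.

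Among the 167 genes that had 1000 or more reads in all, those with the log2 ratio nearest to that of Cyp21a1 over these 2 libraries were Hsd3b1 (-0.73), Hspa8 (-0.71), Actg1 (-0.70), Abhd4 (-0.68) and Cyp11b1 (-0.65). None of the 5 was as low as Cyp21a1 at -0.91. By the sum of absolute differences in the 5 class shares over both libraries, the nearest genes were Acsbg1 (17.9 percentage points), Hspd1 (23.0), Aldoa (28.0), Lonp1 (32.5) and Chga (34.8). Chga, chromogranin A of chromaffin cells, had known shares of 83.3% and 76.3%.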

How the data were processed

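Long-read RNA-seq of 2 adrenal gland libraries was used. The deposited values are raw counts of reads per transcript model, 1 table per library, which the authors made from alignments to mm10 with GENCODE release M21, per the deposited descriptions. Models carry TALON tags, per the file headers. The aligner is not given in the sources used here, nor are versions or filters. Exons came from the deposited model annotations.

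Counts were summed per annotated gene. CPM used all mouse reads, new loci included, without spike-ins (Ambion mix 1 and a Lexogen set, per the labels). Genes, class shares and model shares were tested between replicates 1 and 2 by Fisher's exact test, two-sided, with Benjamini-Hochberg adjustment over the whole table (Python 3.11.15, scipy 1.17.1). New loci carry names of 1 library and were not tested. New models were matched by intron chain and strand. A call took a log2 ratio of 1, or 10 percentage points, in size at an adjusted p under 0.05. Scaling alternatives used edgeR 4.0.16 (TMM) and DESeq2 1.42.0. Intervals and floors (3 reads) cover counting error only, since no molecular identifiers separate the molecules.

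Named were every known model, the 10 most abundant other models of each library, the steroid list, genes within 100 kb with reads, and the 5 genes nearest in log2 ratio and in class shares. The member gene and lists were chosen with earlier results of these data known; structural categories, splice sites and retained-intron comparisons were chosen after the values were seen.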

Additional observations from a re-analysis of the deposited data

How the results depend on the processing

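Of 31 alternative values for the main results, 29 kept their direction and side of the threshold or stayed within the spread. Some of them could not come out otherwise. A mean of 2 libraries cannot move beyond its SD when 1 is left out. The minimum of reads per gene does not enter the log2 ratio of Cyp21a1. The log2 ratio of Cyp21a1 ran from -0.97 with known models alone to -0.80 with DESeq2 size factors, which moved the median of all genes from -0.10 to 0.01, and it was not called under any of the 9 alternatives. Known and ISM models together held 88.2% of Cyp21a1 reads (mean of the libraries), against 79.9% for known models alone. With at least 50 exonic bases of the neighbour required, reads reaching neighbouring genes fell from 45 over both libraries to 28, since the overlaps of 1 base drop out. Leaving out a replicate gave levels of 9698 to 18263 CPM and known shares of 76.1% to 83.7%. The steroid genes that passed the p threshold as lower were 6 to 8 over the alternatives; Fdx1 passed at 0.0431 (exact, adjusted p) and not with TMM factors (0.110). No paired analysis was possible because the study has 1 group. At this depth a share of Cyp21a1 reads under about 0.05% rests on a few reads.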
